A study of Drosophila melanogaster with 3 samples.

Results

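The Drosophila protein Hr78 belongs to the nuclear receptors and has no known ligand; its closest vertebrate relatives are the testicular receptors TR2 and TR4. Nuclear receptors contact short DNA elements through a zinc finger domain and recruit coregulators of transcription. Hr78 is required for the larva to pass into metamorphosis, it was found at many ecdysone-regulated puffs of the polytene chromosomes, and it also acts in tracheal growth. In chromatin immunoprecipitation followed by sequencing (ChIP-seq), a called peak's width reflects the length over which the fragment pile-up exceeds the caller's threshold. A short element bound by protein gives a peak of about the length of the fragments, and a longer peak can hold several such elements or a very strong one.

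The regions described here are the broad Hr78-GFP peaks, those of 1000 bp or more on the chromosome arms X, 2L, 2R, 3L, 3R and 4. There were 586 of them among 4701 peaks on these 6 arms and 4851 peaks in the whole list. The other 4115 peaks on the arms, all under 1000 bp, are called the narrower peaks. The broad peaks were chosen by their width as deposited, and the score of a peak comes from the same pile-up, so widths and scores are given as descriptions and carry no test.

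All 3 libraries came from wandering third-instar larvae (L3) of the strain Hr78-GFP, with the genotype PBac{y[+]-attP-3B}VK00037, a landing site for transgenes, and a transgene made of the Hr78 genomic coding region. The protocol names y; bw cn sp flies as the culture, the sex of the larvae is unknown, and no label used here says whether the larvae also carried the untagged gene. For 2 ChIP libraries the rabbit polyclonal antibody GFP ab290 was used, and 1 library was input DNA. Larvae were crosslinked whole, so the tissue behind a peak is not known. There was 1 peak list for the whole series and no value per library, so no value below has a spread between replicates, and the sequencing depth is unknown. Intervals are exact 95% intervals that count peaks as independent, which clustered peaks are not, and they do not measure variation between libraries. Positions are in FlyBase release 5 and are counted from 1, with both ends included. No genome or annotation of that release was used here, so peaks are named by position, and neither their sequence nor the nearest gene is given.

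Broad peaks were a small share of the list and a large share of the sequence under it. They made up 12.5% of the peaks on the arms (11.5% to 13.4%) and 33.0% of the bases covered, 880 kb of 2662 kb. Most lay close to the limit. The median width was 1331 bp, the quartiles were 1137 and 1611 bp, and 398 of the 586 (67.9%) were shorter than 1500 bp. Another 105 were 1500 bp to under 2000 bp wide, 83 were 2000 bp or more, and 18 were 3000 bp or more. The limit of 1000 bp cut through a continuous distribution. The peaks just inside it were 1000 bp wide on 3L (score 52.37) and on chromosome 4 (128.04) and 1002 bp wide on 2R (31.35). The peaks just outside it were 998 bp wide on 2L (26.68), 2R (21.9) and 3R (69.75).

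The 10 widest peaks lay on the autosomal arms 2L, 2R, 3L and 3R, which held 78.8% of all broad peaks and 80.6% of the length. Broad peaks reached 3168 bp on X and 2475 bp on chromosome 4. The widest of all covered 5389 bp of 2R, from 19865308 to 19870696, with a score of 145.58. A 4880 bp peak on 2L, from 2196099 to 2200978, scored 77.7. It was followed by a 4483 bp peak on 2L, from 478190 to 482672 (score 89.38), and by a 4158 bp peak on 2R, from 8473906 to 8478063 (98.46). The fifth, 3948 bp on 3R from 16607078 to 16611025, scored 123.06. Of the 10 widest peaks, 4 lay on 2L, 4 on 2R, 1 on 3L and 1 on 3R. The gaps of these 10 to the nearest narrower peak ran from 95 to 5596 bp. Among all broad peaks, 66.2% had a narrower peak within 5 kb and 81.4% within 10 kb. Of the 10, 9 had another peak of either class within 1 kb, whereas 50.2% of all broad peaks had none at that distance. Over all 83 peaks of 2000 bp or more, however, the median gap to a narrower peak was 1374 bp, close to the 1473 bp of all broad peaks. The score of the 10 widest ran from 42.11 to 152.33, and none of them was among the 10 highest-scoring broad peaks.

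Scores of broad peaks spanned the range from weak to very strong. The median was 51.31 (46.1 to 55.6), the quartiles were 29.2 and 91.3, and the lowest and highest were 10.4 and 329.28, against a median of 12.87 for narrower peaks. Only 7 broad peaks scored below the narrower median, and 298 narrower peaks (7.24%) scored above the broad median. Among the 1000 highest-scoring peaks of the whole list, which had scores of 33.59 or more, 924 lay on the arms and 401 of these were broad. This was 68.4% of the broad peaks (64.5% to 72.2%) and 12.7% of the narrower ones (11.7% to 13.8%).

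The median score rose with width and passed the limit without a step. Peaks of 800 bp to under 900 bp had a median score of 29.1 (n = 182), those of 900 bp to under 1000 bp one of 33.1 (n = 153), and those of 1000 bp to under 1100 bp one of 36.8 (n = 113). Among the broad peaks, 4 classes of width were set, with lower bounds of 1000, 1200, 1500 and 2000 bp. In the first class the median was 40.5 (33.1 to 51.3, n = 198). It was 51.0 in the second (45.6 to 57.2, n = 200) and 45.6 in the third (38.7 to 65.1, n = 105), and these intervals overlap. At 2000 bp or more it was 81.9 (64.5 to 102, n = 83). Across the 586 broad peaks Spearman's rho of width and score was 0.22, and across the 4115 narrower peaks it was 0.68. Peaks of 1 list share their libraries and background, so both are descriptions. The lowest score in a class rose with width, from 10.4 in the first and 11.86 in the second to 15.68 in the third and 25.39 at 2000 bp or more. The third class (n = 105) and that of 2000 bp or more (n = 83) also held fewer peaks, which by itself tends to raise a lowest value.

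**Figure D1:**
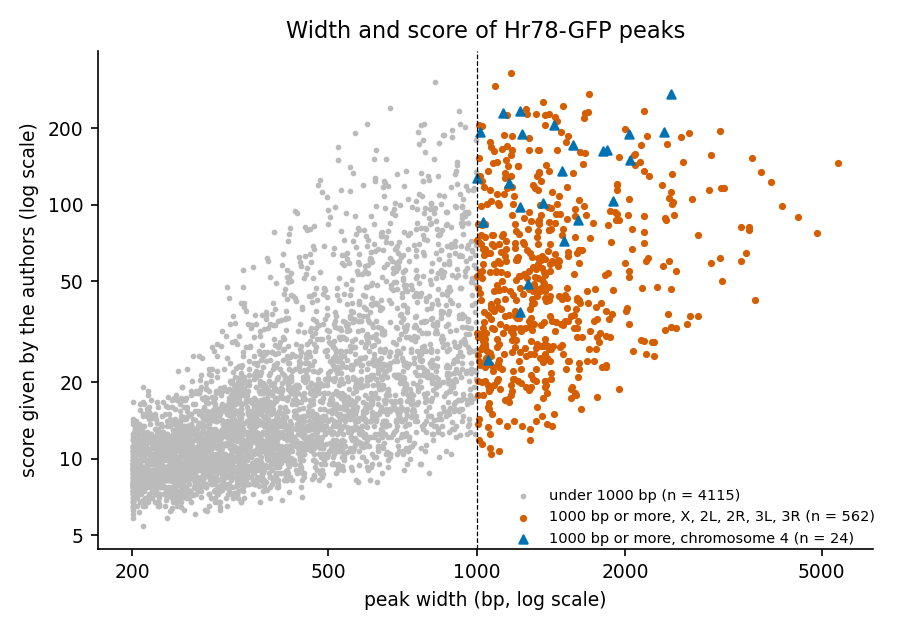
Width (x axis, bp, log scale) and the authors' score (y axis, log scale) of each of the 4701 peaks on the 6 arms, with peaks under 1000 bp in grey, broad peaks of the 5 large arms in orange and those of chromosome 4 as blue triangles. The cloud runs through the dashed limit of 1000 bp without a break, its lower edge rises with width, and 23 of the 24 broad peaks of chromosome 4 score 33.59 or more.

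The highest-scoring broad peaks were mostly of moderate width. A 1173 bp peak on 3R, from 8537793 to 8538965, scored 329.28 and had no broad peak within 82.4 kb. The next were 1089 bp on 3R, from 15686774 to 15687862 (score 292.41), and 1687 bp on 3R, from 11924739 to 11926425 (274.35). A 2475 bp peak on chromosome 4, from 199440 to 201914, also scored 274.35. Of the 10 highest, 3 lay on 3R, 3 on X, 2 on chromosome 4, 1 on 2R and 1 on 3L, and only 2 were wider than 2000 bp.

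The lowest-scoring broad peaks were mostly close to the limit in width. The lowest, 1070 bp on 2R from 6694552 to 6695621 with a score of 10.4, stood 60 bp from a narrower peak. Those on X from 3587841 to 3588950 (score 10.68), on 3R from 8275026 to 8276086 (10.97) and on 2L from 1722630 to 1723641 (11.86) had a narrower peak at 237, 835 and 449 bp. These 4 were 1012 to 1110 bp wide. Another 2 lay farther from a narrower peak, both on 2R. The one from 7915204 to 7916229 (1026 bp, score 11.38) was 5013 bp away from it. The one from 6445163 to 6446442 (1280 bp), which tied with the 2L peak at 11.86, was 6894 bp away.

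Read on a Poisson scale, broad peaks had a pile-up of a few times the background. Most scores of the list equalled, to within 0.01, the −log10 of the chance that a Poisson count with a mean of 66.9 exceeds some whole number; the mean was estimated from the scores and stands for the background. The share was 78.5% for broad peaks (460 peaks, 74.9% to 81.8%) and 78.7% for narrower peaks (77.5% to 80.0%), so the classes did not stand apart in this respect. Where the score matched, the pile-up was 3.36 times the background in the median broad peak, with extremes of 1.88 and 7.87, and 2.00 times in the median narrower peak. No source used here defines the score, and this reading rests on the values alone. The widest peak, on 2R, matched at 5.53 times the background. By arm, the share of broad peaks with a matching score was 96.0% on X (90.1% to 98.9%), 91.7% on chromosome 4 (73.0% to 99.0%) and 74.0% on the 4 other arms combined (69.8% to 78.0%). Narrower peaks had the same order of shares, with 94.4%, 83.6% and 76.0%.

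With peaks as called and the limit at 1000 bp, broad peaks were spread more evenly over the 5 large arms per length than narrower peaks. Arm 3R held 125, 2R held 120, 3L held 113, 2L held 104 and X held 100. With arm length taken as the highest peak end, their density was 4.48 per Mb on 3R, 4.53 on 2L, 4.57 on X, 4.61 on 3L and 5.67 on 2R. The highest of these was 1.27 times the lowest. Narrower peaks were at 26.2 per Mb on X, 29.9 on 2L, 35.8 on 3L, 37.5 on 3R and 40.7 on 2R. The ratio of highest to lowest was 1.55, with X lowest. Per 100 genes of the release 6 gene table, which was used for counts per arm only, the contrast was smaller. Broad peaks ranged from 2.96 to 3.70 per 100 genes, a ratio of 1.25, and narrower peaks from 19.6 to 25.2, a ratio of 1.29. The contrast per length also depended on how peaks were delimited. With peaks separated by at most 500 bp merged first, the ratio between large arms was 1.51 for broad and 1.42 for narrower intervals, and with a limit of 1500 bp it was 1.60 and 1.51.

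X had the largest share of broad peaks among the large arms and 3R the smallest. On X 14.9% of peaks were broad (12.3% to 17.8%), on 2L 13.1% (10.9% to 15.7%), on 2R 12.2% (10.3% to 14.5%), on 3L 11.4% (9.50% to 13.6%) and on 3R 10.7% (8.97% to 12.6%). Neighbours in this order had overlapping intervals, and those of X and 3R overlapped narrowly. Put the other way, X held 17.1% of all broad peaks (14.1% to 20.4%) and 13.9% of all narrower ones (12.9% to 15.0%), on 18.3% of the length. Whether the arms differed was not tested, since there is 1 list without replicates.

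Chromosome 4, the small and largely heterochromatic autosome, stood above the large arms in the density of broad peaks, in their share of its peaks and in their scores. It held 24 of them, 17.8 per Mb, 3.75 times the density on the 5 large arms combined, while its narrower peaks were 1.59 times as dense. Of its 97 peaks, 24.7% were broad (16.5% to 34.5%), against 12.2% on the large arms (11.3% to 13.2%). Broad peaks made up 51.6% of the bases under its peaks, against 29.4% (3L) to 35.7% (2L) on the large arms. The median score of its broad peaks was 143.0 (97.8 to 190.7), against medians from 41.0 on 3L to 55.9 on 2L, with X at 53.2 and arms 2R and 3R at 51.0 and 47.1. Its narrower peaks had a median of 15.01 (12.5 to 22.2), against 12.77 for those of the large arms (12.77 to 13.08). The chromosome is short, and 24 peaks give little precision.

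**Figure D2:**
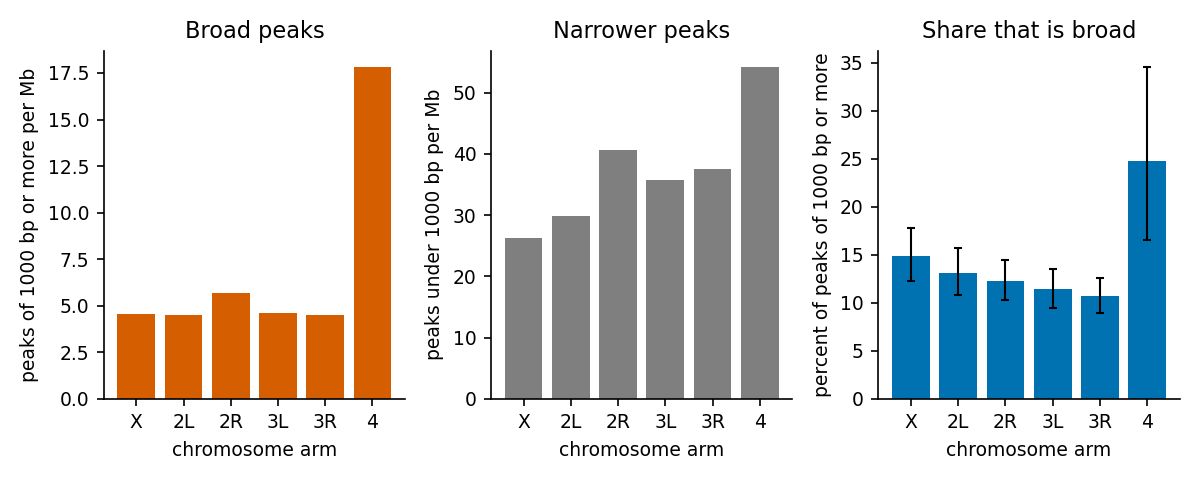
Peaks of 1000 bp or more per Mb (left), peaks under 1000 bp per Mb (middle) and the percentage of peaks that were 1000 bp or more (right) on each chromosome arm; bars in the left and middle panels are counts over arm length, and lines in the right panel are exact 95% intervals. Broad peaks are at 4.48 to 5.67 per Mb on the 5 large arms and at 17.8 per Mb on chromosome 4.

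At a given width, the broad peaks of chromosome 4 had the highest median score of the 6 arms in each of the 4 width classes. From 1000 bp the median was 125.2 on chromosome 4 (n = 6) and 29.2 to 45.6 on the other arms. From 1200 bp it was 118.9 (n = 8) against 37.9 to 58.6, from 1500 bp 133.1 (n = 6) against 35.4 to 53.2, and at 2000 bp or more 192.3 (n = 4) against 60.7 to 108.6. With so few peaks a class, the intervals of chromosome 4 were wide and overlapped those of every other arm in the first and the second class. In the third class the interval of chromosome 4 (72.1 to 171.6) lay above those of X and 3L and overlapped those of 2L, 2R and 3R. For the widest class, 4 peaks give no interval. Among the large arms no order held over the classes. X was highest of them in the first, the third and the widest class, and 2L in the second. Very broad peaks were unevenly shared as well. Peaks of 2000 bp or more were 21.2% of the broad peaks on 2L (22 peaks) and 19.2% on 2R (23 peaks), but 5.31% on 3L (6 peaks).

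**Figure D3:**
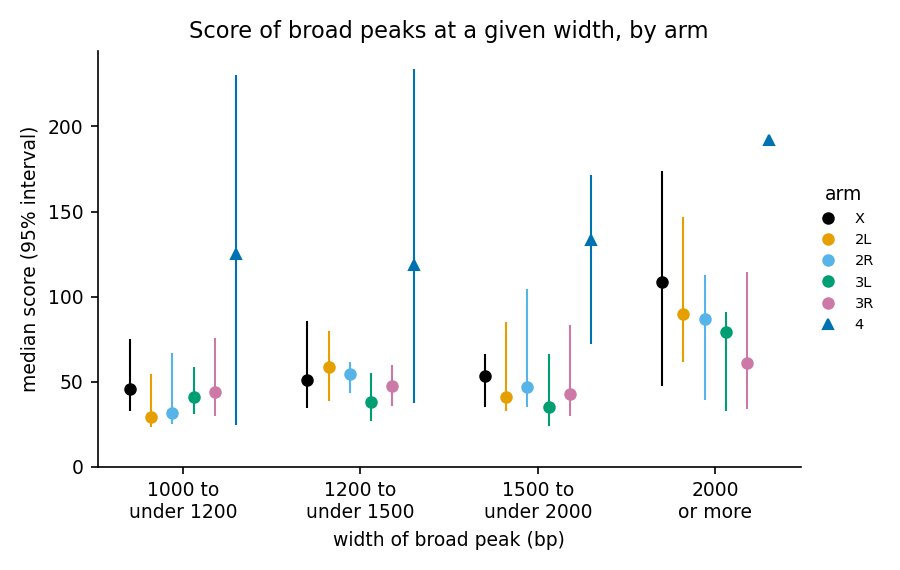
Median score (y axis) of broad peaks in 4 classes of width (x axis, bp) on each arm, with exact 95% intervals of the median as lines; no interval is drawn for the 4 peaks of chromosome 4 in the widest class. Chromosome 4, the blue triangles, lies between 118.9 and 192.3, above the medians of the other arms in every class.

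Along the arms, broad peaks left most windows empty. Of 1200 windows of 100 kb, 384 (32.0%) held the centre of a broad peak (29.4% to 34.7%), and 914 (76.2%) held that of a narrower one. The share with a broad peak was 27.8% on 2L, 29.7% on 3R, 30.5% on 3L, 32.4% on X and 37.3% on 2R, and 12 of the 14 windows of chromosome 4 held one. When each arm was cut into 10 equal segments, the number of broad peaks per segment ran from 2 to 21 on X, from 2 to 20 on 2L, from 4 to 17 on 2R, from 4 to 22 on 3L and from 7 to 17 on 3R. The richest segments of X (21 broad peaks) and 2L (20) were the first, farthest from the centromere. On 3R the first was also the richest (17) but lies next to the centromere, and on 3L the ninth (22), toward the centromere, was the richest. The first segments of X and 2L also held the most narrower peaks of their arms (87 and 114). The first of 3R held 138 narrower peaks and the ninth of 3L 111, against highest counts of 139 and 149 on these arms. In these segments 19.4% of peaks were broad on X, 14.9% on 2L, 11.0% on 3R and 16.5% on 3L. On the whole arms the shares were 14.9%, 13.1%, 10.7% and 11.4%.

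Long stretches without a broad peak still carried narrower ones. The longest on 2L was 1868 kb, from 13192234 to 15060630, and held 32 narrower peaks. On 3L it was 1656 kb, from 11359052 to 13015398, with 48 narrower peaks, and on 3R 1606 kb, from 23108142 to 24714463, with 26. On 2R and X the longest were 1527 kb and 1212 kb, with 18 and 19 narrower peaks, and on chromosome 4 it was 238 kb, with 11.

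Next to the centromeres, pooled over the 5 large arms, broad peaks were about as dense as elsewhere and narrower peaks were sparser. The 2 Mb stretches closest to the centromeres held 55 broad peaks, 5.50 per Mb against 4.68 per Mb on the rest of these arms. Narrower peaks were at 24.0 per Mb there and at 35.1 per Mb on the rest. On X, 2L and 3L the stretch was counted back from the end of the last peak, which was broad on each of these arms. Any sequence beyond that peak was left out. On 2R and 3R the stretch was counted from the low end of the arm. The arms differed. On 3R both classes were denser near the centromere (8.0 and 53.5 per Mb, against 4.21 and 36.2), and on X both were sparser (3.0 and 6.5, against 4.73 and 28.2). On 2L broad peaks were denser (7.0 against 4.29) and narrower ones slightly sparser (27.0 against 30.2). On 2R and 3L broad peaks were slightly sparser (5.0 against 5.75 and 4.5 against 4.62). Narrower peaks were sparser there (24.0 against 42.4 and 9.0 against 38.1). The share of broad peaks was 18.6% (14.4% to 23.6%) against 11.8% (10.8% to 12.8%), and it was higher next to the centromere on each of the 5 arms. It was highest on 3L, with 9 of 27 peaks (33.3%, 16.5% to 54.0%), against 10.8% on the rest (8.91% to 12.9%). On X 6 of 19 peaks were broad (31.6%, 12.6% to 56.6%), against 14.4%. The shares were 20.6% and 12.4% on 2L, 17.2% and 11.9% on 2R and 13.0% and 10.4% on 3R. On X and these 3 arms the intervals overlapped. On X, 2L and 3L the way the stretch was set placed a broad peak in it, which raises the share where peaks are few. The median score of broad peaks was 74.1 next to the centromere (58.9 to 108.5) and 46.1 elsewhere (42.1 to 51.8). The median was higher next to the centromere on each of the 5 arms, but the intervals were apart only on 2R, with 127.4 (72.1 to 176.3) against 45.6 (36.4 to 60.0). The medians were 86.8 against 50.0 on 2L, 62.3 against 52.1 on X, 58.9 against 39.2 on 3L and 55.6 against 46.6 on 3R.

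Windows with more broad peaks also held more narrower peaks. The median number of narrower peaks was 1 in the 816 windows without a broad peak, 4 in the 246 windows with 1, 6 in the 95 windows with 2 and 8 in the 43 windows with 3 or more. Spearman's rho of both counts over the 1200 windows was 0.46, from 0.39 on 3L to 0.50 on 2L among the large arms. Windows share gene density and mappable sequence, which were not examined here. Only 23 windows held a broad peak and no narrower one. In the 46 windows with 15 or more peaks of any width, 94 of 842 peaks were broad (11.2%), against 12.7% elsewhere, and 7 of these windows held no broad peak.

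**Figure D4:**
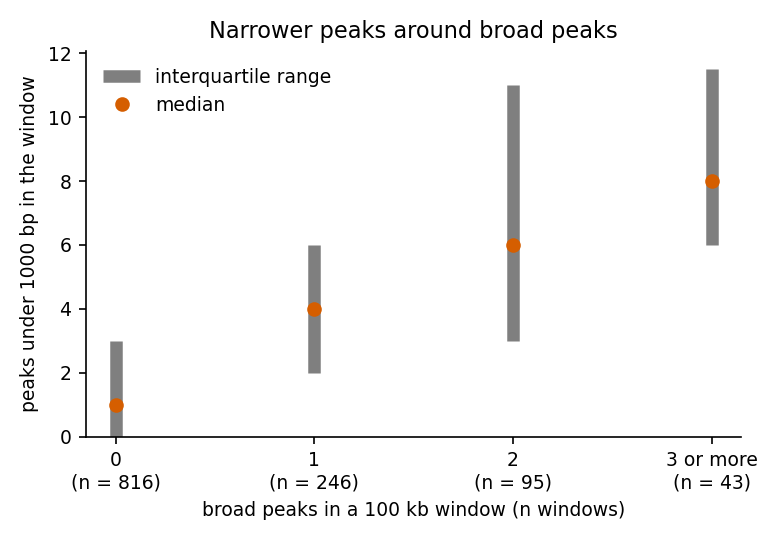
Number of peaks under 1000 bp (y axis) in windows of 100 kb with 0, 1, 2 or at least 3 broad peaks (x axis); points are medians and grey bars interquartile ranges over windows. The median rises from 1 to 8 narrower peaks.

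The windows with most broad peaks differed in strength. With 6 each, they were 2R from 6400001 to 6500000, 3L from 21000001 to 21100000 and 3R from 5900001 to 6000000. The 2R window held 16 narrower peaks, and its broad peaks had a median score of 17.6. The 3L window held 6 narrower peaks and had a median broad score of 43.0, and the 3R window held 11 and had 24.4. The 2R window scored low for broad peaks, although the window just before it, from 6300001 to 6400000, held 4 broad peaks with a median score of 102.9.

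The nearest broad peak was, in the median, somewhat closer to broad peaks than to narrower ones. The gap between facing ends had a median of 28.1 kb (22.9 to 33.8 kb) from a broad peak to the nearest other broad peak, and of 36.3 kb (33.5 to 38.6 kb) from a narrower peak to the nearest broad peak. These intervals overlap narrowly. Within 10 kb, 31.1% of broad peaks had another broad peak (27.3% to 35.0%), against 27.5% of narrower peaks (26.1% to 28.9%), and within 20 kb 43.0% against 38.0%. On X the order was the other way, with medians of 41.7 kb from broad and 28.5 kb from narrower peaks, and on chromosome 4 it was 12.9 and 11.1 kb. On 2L the medians were 24.2 and 37.4 kb, on 2R 27.6 and 32.9 kb, on 3L 21.3 and 48.7 kb, and on 3R 34.8 and 37.7 kb. The median was thus smaller for broad peaks on 4 of the 6 arms, with the largest difference on 3L.

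Most broad peaks had no broad companion. When those within 10 kb of each other were linked, 404 stood alone and 182 formed 77 groups, of which 55 were pairs and 22 held 3 to 5 broad peaks. The group with most members had 5 over 19.9 kb on 3L, from 21000601 to 21020472, with widths of 1018 to 2801 bp, scores of 27.05 to 76.09 and 1 narrower peak between them. A group of 4 on 2R, from 6308441 to 6318366, had no narrower peak in between and scores of 91.95 to 226.37. The groups of 4 on 2L from 19157966 to 19166423 and on 3R from 5905934 to 5916078 held weaker members, down to 20.68 and 15.68. On chromosome 4, 3 peaks of 1566 to 2396 bp lay between 679749 and 692173, with scores of 150.07 to 193.89. Among the 105 successive broad pairs with a gap of at most 10 kb, 50 had no narrower peak between them. Spearman's rho between the scores of such pairs was 0.22 and between their widths 0.24. For the 475 pairs farther apart it was 0.13 and −0.03. Pairs share peaks with the next pair, so these are descriptions.

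Some broad pairs were separated by little more than the shortest gap in the list, which was 50 bp between any neighbouring peaks on the arms. The closest pair lay on 2R, from 6427654 to 6428665 and from 6428718 to 6429768, with 52 bp between them and scores of 14.36 and 16.02. On 3L, a 2403 bp peak from 17569429 to 17571831 (score 88.4) was followed after 59 bp by a 1110 bp peak (24.58). On 3R, peaks of 1863 and 2181 bp were 60 bp apart, over 4104 bp from 635290 to 639393. On 2L, peaks of 1600 and 3116 bp were 72 bp apart, over 4788 bp from 12003073 to 12007860, and peaks of 1100 and 1397 bp were 103 bp apart, from 6086148 to 6088747. In all, 18 broad peaks had another broad peak within 200 bp, 3.07% of the class (1.83% to 4.81%), and 2.84% of narrower peaks (2.36% to 3.40%) had a broad peak at that distance.

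At the other end stood broad peaks far from any other. The one on 2L from 13191171 to 13192233 (1063 bp, score 23.65) was 1178 kb from the nearest other broad peak, and the one on 3L from 13015399 to 13016595 (1197 bp, score 67.41) 979 kb. The peak on X from 14476816 to 14477953, 1138 bp wide with a score of 133.81, was isolated by both measures, 760 kb from a broad and 188 kb from a narrower peak. It was followed by a 3L peak from 7241835 to 7243367, with a score of 186.63 and no narrower peak within 94.7 kb. The others among the 5 farthest from a broad peak, on 2L from 15060631 to 15061841 (score 142.61) and on X from 13715368 to 13716373 (20.3), were 700 and 692 kb from one. The others among the 5 farthest from a narrower peak were on 3L from 22734334 to 22735717 (24.96), on X from 172557 to 173653 (46.12) and on 3L from 24020758 to 24021824 (168.44), with gaps of 84.0, 81.8 and 79.8 kb. All of these isolated peaks were under 1600 bp wide. Broad peaks with no peak of any width within 20 kb numbered 48 (8.19%, 6.10% to 10.7%), against 10.9% of narrower peaks (9.93% to 11.9%), and had a median score of 77.3. Narrower peaks isolated in this way also scored above their class, with a median of 16.36 against 12.87.

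Most broad peaks had a narrower peak nearby, as most narrower peaks had. The median gap to the nearest narrower peak was 1473 bp for broad peaks (1099 to 2181 bp) and 1947 bp for narrower ones (1754 to 2122 bp), which overlap. A narrower peak lay within 500 bp of 33.6% of broad peaks (29.8% to 37.6%) and 31.6% of narrower ones (30.2% to 33.0%), and within 10 kb of 81.4% (78.0% to 84.5%) and 76.4% (75.1% to 77.7%). On the flanks, 50.2% of broad peaks had no peak of any width within 1 kb, 38.4% had one on 1 side and 11.4% on both sides, against 54.7%, 34.7% and 10.6% of narrower peaks. The median score of broad peaks was 59.9 without such a neighbour, 44.1 with one on 1 side and 36.4 with both, while their median widths were 1324, 1342 and 1391 bp. For narrower peaks the median scores were 13.71, 12.16 and 12.77.

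Compared at the same score, broad peaks lay closer to a narrower peak than narrower peaks did. Peaks on the arms were sorted into 6 score bands from 10 upwards, since no broad peak scored below 10. In each of the 6 bands the median gap was smaller for broad peaks. The narrower peaks in these bands had median widths of 331 to 776 bp, so most were far from the limit. Near the limit, without sorting by score, the median gap followed no order. It was 1632 bp at widths of 900 bp to under 1000 bp, 1099 bp from there to under 1100 bp, and 4653 bp from there to under 1200 bp. At scores of 15 to 20 it was 500.5 bp for broad peaks (342 to 1386 bp, n = 36) and 2096 bp for narrower ones (1666 to 2741 bp, n = 595). At 30 to 50 it was 1129 bp (601 to 2438 bp, n = 134) and 5254 bp (3452 to 6953 bp, n = 291). At 50 to 100 it was 1728.5 bp (1201 to 3179 bp, n = 168) and 5865 bp (4766 to 8811 bp, n = 238). In these 3 bands the intervals were apart. At 10 to 15 (449 and 1387 bp), at 20 to 30 (843 and 2697 bp) and at 100 or more (3620 and 4221 bp) they overlapped. Between centres, which adds the peaks' own width to the distance, the median was also smaller for broad peaks in all 6 bands, at 0.41 to 0.95 times that of narrower peaks, and so it was on 2L, 2R, 3L and 3R alone, at 0.17 to 0.86 times between facing ends. At scores of 10 to 15, 52.6% of broad peaks had a narrower peak within 500 bp (10 of 19, 28.9% to 75.6%). At 100 or more 26.7% had one (35 of 131, 19.4% to 35.2%), and these intervals overlap. For narrower peaks the share was 35.3% at 10 to 15 (32.8% to 37.9%) and 15.97% at 50 to 100 (11.6% to 21.3%). At 100 or more it was 26.03% (16.5% to 37.6%), close to that of broad peaks. In both classes the share was thus lower at 100 or more than at 10 to 15, with overlapping intervals. For narrower peaks it was lowest at 50 to 100, where the interval lay below that of 10 to 15.

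**Figure D5:**
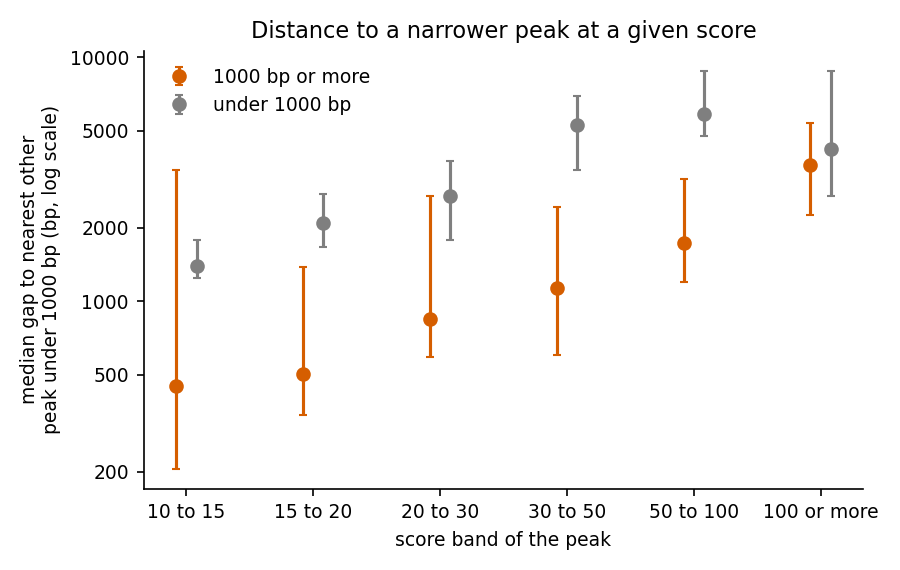
Median gap between facing ends to the nearest other peak under 1000 bp (y axis, bp, log scale) for broad peaks (orange) and narrower peaks (grey) in 6 bands of score (x axis), with exact 95% intervals of the median. Broad peaks are lower in all 6 bands, from 449 against 1387 bp at scores of 10 to 15 to 3620 against 4221 bp at 100 or more.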

How the data were processed

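ChIP-seq of Hr78-GFP was represented by 1 deposited peak list for 3 libraries (2 ChIP, 1 input). Per the file headers, positions refer to FlyBase release 5 and MACS called the peaks; the submitters' processing notes list CASAVA (1.7.0.2 and 1.7.0.3), BWA and MACS2 without saying what each did. The score per peak is the authors' deposited value; no source used here gives its definition, the threshold or any pooling of replicates, and the score was used only within this list. Depth per library is unknown.

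Peaks on 6 arms were divided at 1000 bp. Gaps count the bases between facing ends, windows were 100 kb and assigned by peak centre, and the stretch next to the centromere was 2 Mb long, at the low end for 2R and 3R and at the high end for X, 2L and 3L. For shares, 95% intervals are exact (Clopper-Pearson), and for medians they are exact order-statistic intervals, given from 6 peaks up. No test was made, since there is 1 list without replicates. The Poisson mean was searched from 20 to 200 in steps of 0.01, then 0.0005, with a tolerance of 0.01; other means more than 2 away matched at most 17.2% of scores. The members, and all measures, were chosen with earlier results of these data known. The named peaks are the 10 widest, the 10 highest-scoring and the 5 lowest-scoring broad peaks (with 1 more that tied with the fifth, added after its value was seen), the 5 closest pairs, the 5 farthest from a broad and the 5 farthest from a narrower peak, the 3 fullest windows and 3 peaks on each side of the limit; the linked groups, the longest stretches and the 2R window next to the fullest one were named after their values were seen, and of longer sets some members are given as ranges. Distance and interval functions were tested on simulated data. Alternatives were other width limits, a stricter score, merged peaks, all sequences, centre distances and 50 kb windows. Software was Python 3.11.15, pandas 2.3.3, numpy 2.4.6, scipy 1.17.1 and matplotlib 3.10.9.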

Additional observations from a re-analysis of the deposited data

Results flagged for a closer look

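Peaks of 1000 bp or more also lay outside the 6 arms, on sequence that the comparisons did not use. There were 10 of them among 150 peaks there. The assembled heterochromatic sequences held 8 among 57 peaks (exact 95% interval of the share 6.26% to 25.8%), of which 5 lay on 3LHet with scores of 82.45 to 202.6. The unplaced sequences held 2 among 84 (2.38%, 0.290% to 8.34%), and the mitochondrial sequence held 0 of 9 (0% to 33.6%). The widest of the 10 covered 2489 bp of 2LHet, from 32522 to 35010, with a score of 166.88. Reads shared between repeats were not tested there.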

How the results depend on the processing

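Of 60 alternatives, 38 kept their value within 1.5 times (counts) or within its exact 95% interval (shares and medians), among them 23 of 24 shares per arm; the distances by score band at other arms and between centres were alternatives chosen after seeing the data. The rest moved mostly by construction, since other limits choose other peaks. With a limit of 800 bp there were 921 broad peaks with a median score of 43.1, a median gap to another broad peak of 14665 bp, 40.9% with another within 10 kb and 41.9% of windows holding one. With 1500 bp the same values were 188, 63.58, 114974 bp, 19.7% and 13.1%, the median gap to a narrower peak was 974.5 bp and the share on 3L 15.4%. With peaks within 500 bp merged they were 901, 36.35, 14813 bp, 39.8% and 41.3%, and the gap to a narrower peak was 5177 bp. It was 8597 bp with peaks scoring 14.36 or more, the list median, and 2699 bp between centres. From narrower peaks to another narrower peak the median was 1456 bp at 1500 bp, 7147 bp with merging, 11411 bp with the stricter score and 2384 bp between centres. From narrower to broad peaks it was 19559 bp at 800 bp, 171733 bp at 1500 bp and 27358 bp with merging. With all sequences 23.9% of windows held a broad peak, and with windows of 50 kb 18.3%. The evenness of broad peaks per Mb over the large arms was lost with merging and at 1500 bp, as given above; the cause was not tested. The share of broad peaks stayed higher on chromosome 4 than on the large arms at 800 bp (34.0% and 19.3%), at 1500 bp (10.3% and 3.87%), with the stricter score (38.7% and 24.1%) and with merging (49.3% and 23.8%). No paired analysis was possible because the list has no value per library, and for the same reason no replicate could be left out. The unknown depth limits how far a width can be read, since the length above a threshold grows with depth.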

Other observations

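The last peak on an arm, by coordinate, was broad on 5 of the 6 arms, and the first peak was broad on 0 of 6; this was noticed after the values had been seen and was not tested. Among all peaks on the 6 arms 12.5% were broad, so few broad peaks would be looked for among 6 first peaks. The last peaks were 1407 bp wide on X (21857227 to 21858633, score 58.34), 1273 bp on 2L (22967625 to 22968897, 55.05), 1529 bp on 3L (24529102 to 24530630, 65.09), 1442 bp on 3R (27877198 to 27878639, 84.95) and 1222 bp on chromosome 4 (1346945 to 1348166, 233.97). On 2R the last peak was 208 bp wide, with a score of 15.58. These ends face the centromere on X, on 2L and on 3L, and the telomere on 2R, on 3R and on chromosome 4. The first peaks were 291 to 809 bp wide, with scores of 10.4 on 3L to 43.6 on 2R.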
